A study of Mus musculus with 10 samples.

Results

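Axon injury and regeneration genes are taken here as 9 genes that sensory neurons raise after axotomy or dissociation, chosen by symbol: Atf3, Jun, Sox11, Gap43, Stmn2, Gadd45a, Hspb1, Sprr1a and Ecel1. Each had 1 row among the 24421 gene rows of the count files. Counts were present for 7 of the 9, and Sprr1a and Ecel1 were listed at 0 in every pool. When the axon of a sensory neuron is cut, kinases in the axon and cell body switch on a set of transcription factors, and the neuron moves from a program of transmission to a program of regrowth. The factors Atf3, Jun and Sox11 act early in this response, and proteins of the growth cone, chaperones and small proline-rich proteins follow. Enzymatic dissociation of a ganglion also cuts every axon, so isolated neurons are known to enter the same program.

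The data were RNA sequencing counts of 10 pools of vagal sensory neurons of the mouse, in 5 groups of 2 pools each. The vagal ganglia hold nodose neurons, which derive from the epibranchial placodes, and jugular neurons, which derive from the neural crest. In the Trpv1 selection, neurons were picked by fluorescence from Trpv1-tdTomato mice, in which Cre expressed from the Trpv1 gene switches on the red reporter tdTomato, so that a cell stays red once Trpv1 has been expressed at any time. Its 3 groups were red nodose neurons (Trpv1+ nodose, 30 cells a pool), red jugular neurons (Trpv1+ jugular, 30 cells a pool) and unlabelled nodose neurons (Trpv1- nodose, 15 cells a pool), and all of these came from 2 mice. In the capsaicin selection, neurons of C57BL/6 mice without a reporter were picked by their calcium response. Its nodose pools (14 and 15 cells) had responded both to α,β-methylene ATP (10 μM), which opens P2X receptors, and to capsaicin (1 μM), which opens TRPV1, and its jugular pools (15 and 16 cells) had responded to capsaicin alone. The neurons of all 10 pools had been dissociated with enzymes, and no pool of undissociated neurons was analysed here, so the levels below have no contrast with uninjured neurons. Each group had 2 pools, nothing says that these came from separate animals, and p-values then measure only the spread between these pools.

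A pool of the Trpv1 selection held between 148452506 and 167704327 counts, and a pool of the capsaicin selection between 17666710 and 30810863. Levels are given in CPM, the count of a gene scaled to a library of 1000000 counts, here after division by DESeq2's size factors over all 10 pools. A floor of 3 counts stood between 0.0116 and 0.0154 CPM for the Trpv1 selection and between 0.118 and 0.176 CPM for the capsaicin selection, and it covers counting error only. The labels held against their markers: P2rx2 was at 61.5 CPM or more and Hoxb5 at 233 CPM or more in every nodose pool, and both were at 0.235 CPM or less in every jugular pool. Tac1 was at 248.5 CPM or more in every jugular pool and at 0.767 CPM or less in every nodose pool. Trpv1 was at 0.0334 and 0.0348 CPM in the Trpv1- nodose pools. It was at 202 and 118 CPM in the Trpv1+ nodose pools but only at 17.8 and 25.8 CPM in the Trpv1+ jugular pools. The 12 markers of satellite glia and Schwann cells had sums between 2949 and 4041 CPM for the Trpv1 selection and between 1582 and 2093 CPM for the capsaicin selection, where Sox10, Prx and Egr2 were at 0. Markers of macrophages and other immune cells summed to at most 75.7 CPM, those of endothelial cells to at most 23.0 CPM, those of fibroblasts to at most 239 CPM, and the 3 red blood cell markers were at 0 in all pools. The selections also differed in sequencing core, strain, depth, cells per pool and the calcium assay, which cannot be told apart.

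Among the transcription factors, Atf3 was present in every pool. Atf3, a bZIP factor that is nearly silent in intact sensory neurons, lies on the minus strand at chr1:191170296-191218039 (GRCm38, GENCODE vM21). Its level was 209 and 298 CPM in the Trpv1+ nodose pools, 150 and 123 CPM in the Trpv1+ jugular pools, 181 and 223 CPM in the Trpv1- nodose pools, 752 and 805 CPM in the capsaicin nodose pools, and 189 and 166 CPM in the capsaicin jugular pools. The capsaicin nodose pools stood above all others, the Trpv1+ jugular pools stood below all others, and the 3 groups between them overlapped in turn.

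Jun, the AP-1 subunit that pairs with Atf3 in injured neurons, lies on the minus strand at chr4:95049034-95052222. Its level was 98.8 and 34.1 CPM in the Trpv1+ nodose pools, 54.9 and 229 CPM in the Trpv1+ jugular pools, 81.3 and 186 CPM in the Trpv1- nodose pools, 53.5 and 0.0585 CPM in the capsaicin nodose pools, and 4.0 and 19.9 CPM in the capsaicin jugular pools. The lowest of these rested on 1 count. Replicates of Jun differed by 2.28 to 914 times within a group, and every group overlapped with its neighbour in the order of the means. The exons of Jun share 232 bases with the antisense gene Junos on the other strand, and the strand setting of the counting is not stated, so reads of the shared stretch cannot be told apart.

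Sox11, a SoxC factor of developing neurons that returns during axon regrowth, lies on the minus strand at chr12:27334264-27342574. Its level was 1.31 and 1.69 CPM in the Trpv1+ nodose pools, 29.3 and 0.287 CPM in the Trpv1+ jugular pools, 2.27 and 11.6 CPM in the Trpv1- nodose pools, 706 and 361 CPM in the capsaicin nodose pools, and 1220 and 892 CPM in the capsaicin jugular pools. All 4 capsaicin pools stood above all 6 pools of the Trpv1 selection. Within the Trpv1 selection the Trpv1+ jugular replicates differed by 102 times, and the first of them was the highest of the 6.

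Gap43 and Stmn2 encode proteins of the growth cone. Gap43, a membrane-bound substrate of protein kinase C and the classical marker of axon growth, lies on the minus strand at chr16:42248442-42340651. Its level was 1104 and 1168 CPM in the Trpv1+ nodose pools, 632 and 624 CPM in the Trpv1+ jugular pools, 487 and 644 CPM in the Trpv1- nodose pools, 2190 and 6963 CPM in the capsaicin nodose pools, and 1617 and 370 CPM in the capsaicin jugular pools. Both nodose groups picked by Trpv1 or capsaicin stood above the jugular group of their own selection, and the capsaicin jugular pools spanned the range of the whole Trpv1 selection.

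Stmn2, a microtubule-destabilising stathmin of the axon, lies on the plus strand at chr3:8509360-8561606. Its level was 1824 and 1616 CPM in the Trpv1+ nodose pools, 1574 and 1356 CPM in the Trpv1+ jugular pools, 1359 and 1364 CPM in the Trpv1- nodose pools, 1739 and 1634 CPM in the capsaicin nodose pools, and 1182 and 1411 CPM in the capsaicin jugular pools. Of the 7 genes it varied least, with a highest level 1.54 times the lowest. The Trpv1+ nodose and capsaicin nodose pools lay above all pools of the other 3 groups in these CPM, an order that depends on the size factors.

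Gadd45a, a stress protein of growth arrest and DNA repair, lies on the minus strand at chr6:67035096-67037457. Its level was 43.9 and 49.99 CPM in the Trpv1+ nodose pools, 46.4 and 90.7 CPM in the Trpv1+ jugular pools, 43.5 and 79.7 CPM in the Trpv1- nodose pools, 102 and 70.1 CPM in the capsaicin nodose pools, and 60.9 and 29.4 CPM in the capsaicin jugular pools. Each group overlapped with its neighbour in the order of the means. Its exons share 337 bases with E230016M11Rik on the other strand, a gene that also has a row in the files.

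Hspb1, the small heat shock protein Hsp27 that helps injured sensory neurons survive and regrow, lies on the plus strand at chr5:135887919-135889563. Its level was 842 and 538 CPM in the Trpv1+ nodose pools, 532 and 409 CPM in the Trpv1+ jugular pools, 413 and 300 CPM in the Trpv1- nodose pools, 32.9 and 0.878 CPM in the capsaicin nodose pools, and 0 and 5.96 CPM in the capsaicin jugular pools. The 3 nonzero values of the capsaicin selection rested on 790, 15 and 143 counts. Every pool of the Trpv1 selection stood above every pool of the capsaicin selection.

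Sprr1a, a small proline-rich protein that injured sensory neurons use in outgrowth, lies at chr3:92483952-92485895, and Ecel1, a neuronal endopeptidase also called DINE for its induction by damage, lies at chr1:87147655-87156521, both on the minus strand. Both were listed at 0 in all 10 pools, which together held 1040272146 counts. In all, 33.5% of the rows (8173 of 24421) were at 0 in every pool. These included Rpl26, a ribosomal protein gene that every cell uses and that was singled out after its values were seen, so a row at 0 can mean that the gene was not counted. Of the 13 other Sprr genes in the files, 12 were also at 0. The upper limit that 0 counts allow, 3 counts, therefore applies only if the annotation used by the authors could count these genes.

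Divided by exonic length, the mean level over the 10 pools was highest for Gap43 at 1037 CPM per kb, followed by Hspb1 at 298, Stmn2 at 269, Atf3 at 144, Sox11 at 38.8, Gadd45a at 35.0 and Jun at 23.9 CPM per kb. Exonic length was the union of all exons, 5.602 kb for Stmn2, whose longest transcript has 3413 bases. The order of Hspb1 and Stmn2 depends on this choice of length. The order was also not the same in each group. Hspb1 took place 1 or 2 in the groups of the Trpv1 selection and 6 or 7 in those of the capsaicin selection, Sox11 took place 7 in the former and 3 or 4 in the latter, and Gap43 came first in all groups but Trpv1+ jugular, where Hspb1 stood at 457 and Gap43 at 412 CPM per kb. The mean of Gap43 was raised by the capsaicin nodose pools, at 3005 CPM per kb, where Atf3 took place 2, and Jun stood above Gadd45a in the Trpv1+ jugular and Trpv1- nodose groups.

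**Figure D1:**
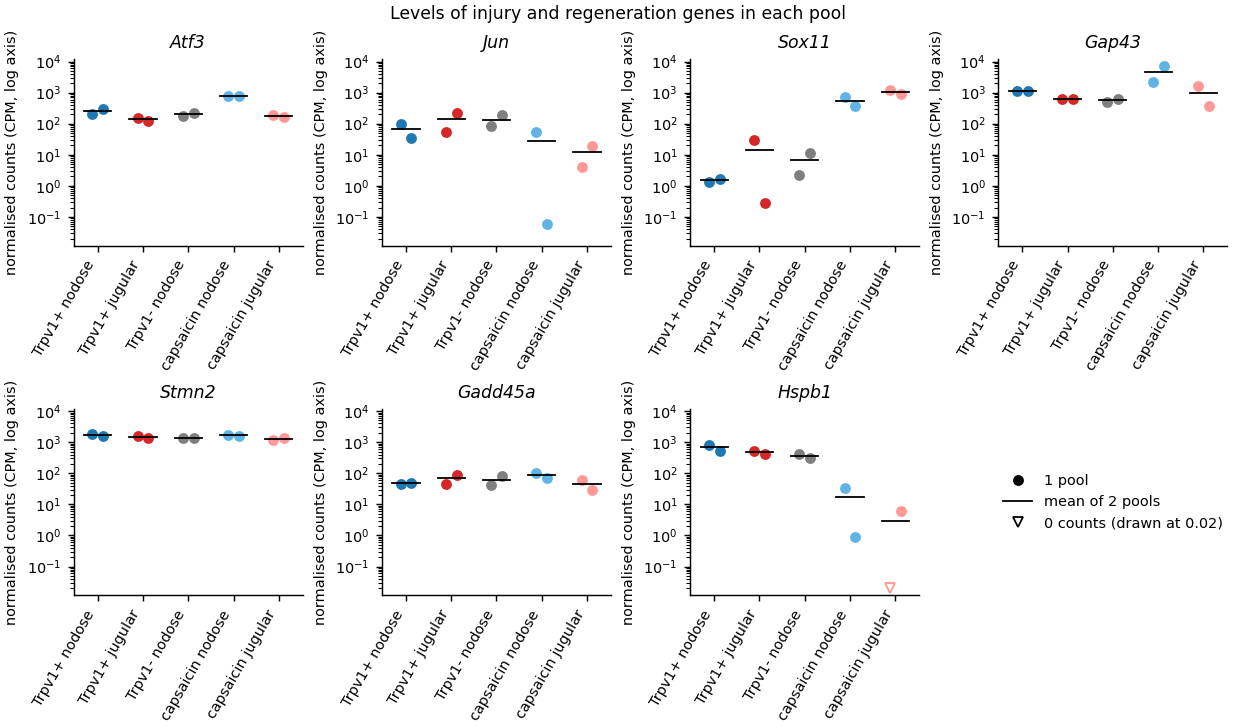
Normalised counts (CPM, log axis) of the 7 counted genes in each of the 10 pools, with a point for each pool, a line for the mean of the 2 pools of a group and an open triangle for a pool with 0 counts. Sox11 is at 361 CPM or more in the 4 capsaicin pools and at 29.3 CPM or less in the 6 other pools, Hspb1 runs the opposite way, and Stmn2 is nearly level.

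The first comparison asked whether nodose and jugular neurons of the Trpv1 lineage differ. A gene was called where its adjusted p in edgeR's quasi-likelihood test did not exceed 0.1 (Benjamini-Hochberg over all genes tested), its fold change reached 2 and both pools of some group reached 10 CPM. None of the 7 genes was called. Of all 10990 genes tested, 0.318% were called. The unadjusted p was under 0.05 for 1 of the 7, where 11.9% of all genes tested had such a p, and DESeq2 called 0 of the 7 and 3.05% of all genes it fitted. Gap43 had a log2 fold change of 0.85 (SE 0.16) toward nodose with an unadjusted p of 0.00274 and an adjusted p of 0.285 in edgeR. Atf3 had a log2 fold change of 0.89 (SE 0.38) toward nodose with an adjusted p of 0.472 in edgeR. For Sox11 the value was -3.30 (SE 2.66), and it turned to 2.36 without the first Trpv1+ jugular pool. The pools of the 2 ganglia did not overlap for 4 of the 7 genes, where 42.1% of all genes tested did not overlap.

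The second comparison set Trpv1+ nodose against Trpv1- nodose neurons, which lie in the same ganglion and differ in the reporter. Here too edgeR and DESeq2 called 0 of the 7 genes, with 0.0527% of 11386 genes called by edgeR and 2.09% of the genes fitted by DESeq2, and 2 of the 7 had an unadjusted p under 0.05, beside 11.1% of all genes tested. These were Gap43, with a log2 fold change of 1.04 (SE 0.20) toward Trpv1+ and an adjusted p of 0.366 in edgeR, and Hspb1, with 0.97 (SE 0.33) and an adjusted p of 0.38. For Gap43 the means were 1136 ± 45.6 CPM (SD, n = 2) in Trpv1+ and 566 ± 111 CPM (SD, n = 2) in Trpv1- nodose pools. Atf3 differed by 0.36 (SE 0.34) and Stmn2 by 0.36 (SE 0.15) on the log2 scale. The pools did not overlap for 4 of the 7 genes, against 40.7% of all genes tested.

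In the capsaicin selection, nodose and jugular pools were compared in the same way. No gene of the 8181 tested was called by edgeR (0% called, 1150 genes with an unadjusted p under 0.05), whereas DESeq2 called 734 genes (6.04%) and none of the 7. Atf3 had the smallest unadjusted p of the 7, with a log2 fold change of 1.78 (SE 0.55) toward nodose, an unadjusted p of 0.0205 and an adjusted p of 0.352 in edgeR. The means of Atf3 were 779 ± 37.7 CPM (SD, n = 2) in nodose and 178 ± 15.7 CPM (SD, n = 2) in jugular pools. Gap43 differed by 1.8 (SE 0.85) toward nodose and Sox11 by -1.27 (SE 0.63), toward jugular. Without a filter on low counts Gap43 was called at 1.81 with an adjusted p of 0.0944 in edgeR, the lowest of a range that reached 1 over 9 alternatives. For Jun and Hspb1 the standard errors of 3.11 and 3.61 exceeded the differences of 0.94 and 2.25, and leaving out the first capsaicin nodose pool turned them to -8.05 and -2.31. The pools did not overlap for 5 of the 7 genes, against 42.1% of all genes tested.

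Over both selections together, Atf3 and Stmn2 were higher in all 4 nodose pools than in all 4 jugular pools, a separation that 1.87% of the 11959 genes tested showed toward nodose. In the fit to these 8 pools with the selection as a covariate, edgeR called none of the 7 genes and 0.577% of all genes, and 2 of the 7 had an unadjusted p under 0.05, beside 11.1% of all genes tested. For Atf3 the log2 fold change was 1.38 (SE 0.39) with an unadjusted p of 0.0052 and an adjusted p of 0.28 in edgeR. DESeq2, which called 7.4% of all genes it fitted, called Atf3 at an adjusted p of 0.0459, the fit of edgeR to all 10 pools called it at 0.095, and over 13 alternatives the adjusted p ranged from 0.0459 to 0.661 while the log2 fold change stayed between 1.24 and 1.55. For Gap43 the log2 fold change was 1.37 (SE 0.44) with an adjusted p of 0.332 in edgeR. Without a filter on low counts Gap43 and Sox11 were called at adjusted p of 2.05e-05 and 0.00199 in edgeR, the lowest of ranges that reached 0.622 and 0.992 over 13 alternatives. Stmn2 differed by 0.17 (SE 0.20) in this fit. The separation of its pools depends on the size factors. The second capsaicin nodose pool held 27921 counts of Stmn2 in a total of 30810863. The capsaicin jugular pools held 30124 in 22173211 and 33838 in 17666710, so by plain totals that nodose pool lay below both.

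The interaction of ganglion and selection tests whether the nodose to jugular difference itself differed between the selections. edgeR called 0 of 11959 genes (0% called, 1233 with an unadjusted p under 0.05) and DESeq2 called 1091 genes (7%), none of them among the 7. The interaction was 0.85 (SE 0.74) for Atf3 and 0.90 (SE 0.85) for Gap43 on the log2 scale, and none of the 7 had an unadjusted p under 0.05.

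**Figure D2:**
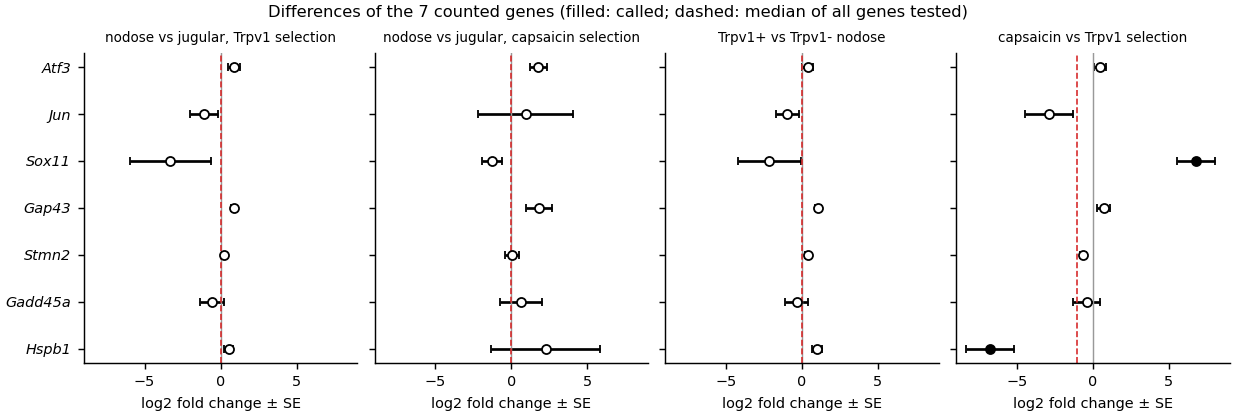
Log2 fold changes with standard errors (edgeR quasi-likelihood fits) of the 7 counted genes in 4 comparisons, the group named first over the group named second, with filled points for called genes and a dashed line for the median of all genes tested. Sox11 at 6.76 and Hspb1 at -6.78 in the comparison of the selections are the only called points, and Atf3 and Gap43 lie to the right of 0 in all 4 panels.

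The comparison of the capsaicin selection with the Trpv1+ pools of the Trpv1 selection used 4 pools against 4, with the ganglion as a covariate. It called 2 of the 7 genes, Sox11 higher and Hspb1 lower, where 5.84% of 11959 genes were called (1.77% higher and 4.06% lower). DESeq2 called the same 2 members and 14.6% of the genes it fitted. The median log2 fold change of all genes tested was -1.04 in this fit, and -0.17 in DESeq2 and -0.51 with RLE size factors in edgeR, so each difference is read against that shift. With RLE size factors the calls were 288 higher and 271 lower, in place of 212 higher and 486 lower. The pools of the selections did not overlap for these same 2 genes, where 18.3% of all genes tested did not overlap. In bulk pools fewer cells with a transcript and less of it per cell cannot be told apart.

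Sox11 had a mean of 795 ± 359 CPM (SD, n = 4) in the capsaicin pools and 8.14 ± 14.1 CPM (SD, n = 4) in the Trpv1+ pools, a ratio of 97.7. Its log2 fold change was 6.76 (SE 1.25) with an adjusted p of 0.0112 in edgeR, 7.80 above the median of all genes tested. It was called in each of 15 alternatives, with log2 fold changes from 6.37 to 9.06 and adjusted p from 1.57e-25 to 0.0319.

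Hspb1 had a mean of 9.94 ± 15.6 CPM (SD, n = 4) in the capsaicin pools and 580 ± 184 CPM (SD, n = 4) in the Trpv1+ pools, which were thus 58.4 times higher. The capsaicin mean rested mainly on the first nodose pool at 32.9 CPM, and without it the mean was 2.28 CPM and the ratio 254.5 (3 capsaicin pools). Its log2 fold change was -6.78 (SE 1.59) with an adjusted p of 0.0395 in edgeR, and it ran from -8.49, without that pool, to -2.21 over 15 alternatives. The call was lost in 1 of these alternatives, a fit with offsets for GC share and length that was added after the data were seen, where the value was -2.21 (SE 1.33) with an adjusted p of 0.411 in edgeR (range over the alternatives 6.44e-24 to 0.411). In that fit Sox11 was called at 8.22 (SE 1.61) with an adjusted p of 0.0264, and the median of all genes tested was 0.71. The glial markers, lower in the capsaicin selection as given above, moved in the same direction as Hspb1, and their part in its difference was not tested.

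The difference between the selections followed base composition and length across all genes, with 96.1% of the genes tested matched to a transcript. By quintiles of GC share, from the lowest to the highest, the median log2 fold change was -0.02, -0.48, -0.78, -1.38 and -2.70. By quintiles of length, from the shortest to the longest, it was -1.83, -1.06, -0.73, -0.70 and -0.63. The longest transcript of Hspb1 has 930 bases and a GC share of 61.7%, and in the 739 genes of the same 2 quintiles the median was -2.71 and 16.5% were called lower. The longest transcript of Sox11 has 8311 bases and a GC share of 46.5%, and in the 578 genes of its quintiles the median was -0.48 and 3.81% were called higher.

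**Figure D3:**
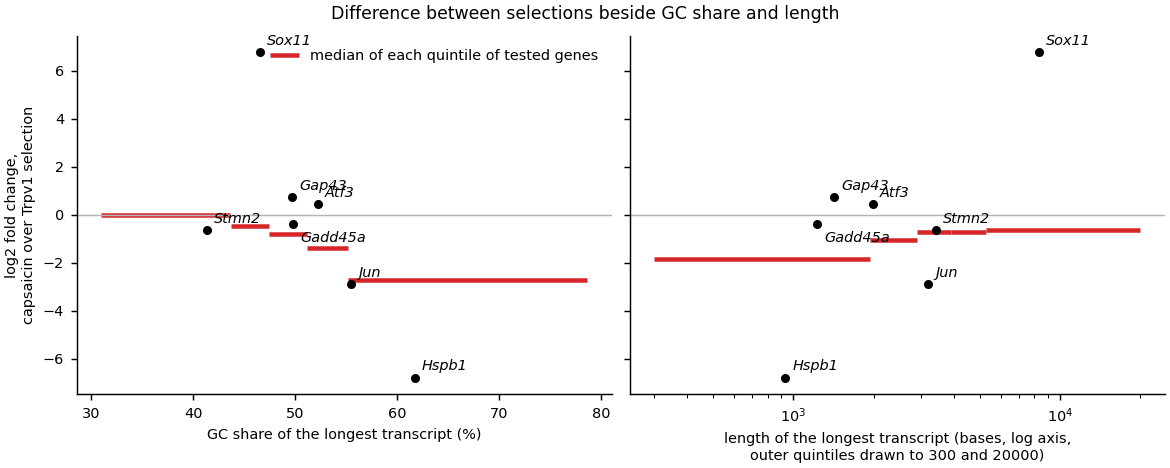
Log2 fold change between the capsaicin selection and the Trpv1+ pools of the 7 counted genes (black points), by GC share (left) and by length on a log axis (right) of the longest transcript, with red lines for the median of each quintile of all tested genes over the quintile's range. The red lines fall from -0.02 to -2.70 as GC share rises, Hspb1 lies below the lines of its quintiles, and Sox11 lies above them.

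The other 5 genes were not called between the selections. Stmn2 had a log2 fold change of -0.65 (SE 0.20) with an adjusted p of 0.118 in edgeR, above the median of all genes but 0.90 below the median of 0.26 in the 497 genes of its own quintiles of GC share and length. With the offsets its value of 0.27 lay 0.44 below the median of all genes. Gap43 had 0.73 (SE 0.43) with an adjusted p of 0.401, and it was called at 1.19 with an adjusted p of 0.0491 without the second capsaicin jugular pool (range over 15 alternatives 0.0256 to 0.709). Jun had -2.88 (SE 1.57) with an adjusted p of 0.351, Atf3 had 0.45 (SE 0.39) with 0.614, and Gadd45a had -0.39 (SE 0.88) with 0.892. With the GC and length offsets, Atf3 and Gap43 had 2.5 (SE 0.70) and 2.41 (SE 0.70) with adjusted p of 0.102 and 0.117 in edgeR, just above the threshold and not called. The median of all genes was -1.04 without the offsets and 0.71 with them, so these values are not a rise of that size. Without the offsets Atf3 lay 1.48 and Gap43 1.77 above the median. With them the distance was a little larger for Atf3 and a little smaller for Gap43.

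Upstream sequence is shown for Sox11 and Hspb1, the genes called between the selections in opposite directions, and for Jun, which encodes a factor that binds such motifs. The windows are the 250 bases before the transcription start in RefSeq (GRCm38.p6), which matched 7 of the 9 genes and held no match for Gap43 and Stmn2, and they are written 5′ to 3′ on the strand of the gene. They lie at chr12:27342719-27342968 (minus) for Sox11, chr4:95052223-95052472 (minus) for Jun and chr5:135887669-135887918 (plus) for Hspb1. The RefSeq start of Sox11 lies upstream of its GENCODE start at 27342574, and distances below are from the RefSeq start. Capitals mark matches, on either strand, to TGACATCA (a Jun promoter element bound by AP-1 and ATF dimers) or to GAANNTTC (a pair of heat shock element units).
Sox11: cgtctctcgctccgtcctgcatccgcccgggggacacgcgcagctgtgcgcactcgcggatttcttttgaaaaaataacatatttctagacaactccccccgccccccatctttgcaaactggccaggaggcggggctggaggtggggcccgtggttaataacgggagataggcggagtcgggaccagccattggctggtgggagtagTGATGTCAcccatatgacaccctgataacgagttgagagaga
Jun: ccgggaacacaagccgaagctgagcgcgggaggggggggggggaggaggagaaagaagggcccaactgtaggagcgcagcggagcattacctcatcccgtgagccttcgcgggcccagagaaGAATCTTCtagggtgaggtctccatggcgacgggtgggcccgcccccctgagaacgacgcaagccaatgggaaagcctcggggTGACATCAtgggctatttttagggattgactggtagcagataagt
Hspb1: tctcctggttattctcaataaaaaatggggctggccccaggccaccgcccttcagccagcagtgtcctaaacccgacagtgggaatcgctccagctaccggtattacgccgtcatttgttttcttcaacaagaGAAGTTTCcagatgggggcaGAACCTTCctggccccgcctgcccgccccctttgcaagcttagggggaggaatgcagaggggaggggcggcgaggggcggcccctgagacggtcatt
Sox11 held TGATGTCA, the reverse complement of TGACATCA, with its first base 42 bases before the start, and Jun held TGACATCA 45 bases before the start. These letters occurred in 2.93% of 32851 promoter windows of the same length. Hspb1 held GAAGTTTC and GAACCTTC at 117 and 97 bases before the start and Jun held GAATCTTC at 128, and such letters occurred in 6.69% of the windows. Searches with the CRE letters TGACGTCA and the AP-1 letters TGANTCA found no match in these 3 windows. Of the windows not shown, that of Sprr1a, at 0 in every pool, held TGACATCA at 207 and TGANTCA at 146 and 116 bases before the start. The window of Atf3 held TTACGTCA, a variant of the CRE letters, at 10, and those of Ecel1 and Gadd45a held no match. TGANTCA occurred in 6.75% and TTACGTCA in 0.447% of all windows. A match is a string of letters and not a shown binding site.

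Other genes of the injury response were read from 10 lists with 180 genes in the files that are not among the 9. Between the selections 137 of them were tested and 19 were called, 5 higher and 14 lower in the capsaicin selection. That is 13.9%, against 5.84% of all genes tested. DESeq2 called 42 of the 137, 17 of the 19 among them, beside 14.6% of all genes it fitted. With the GC and length offsets, 9 of the 19 were called in either direction. Of the 5, 4 were again called higher, and of the 14, 3 were again called lower. The calls over all 11959 genes tested moved the same way, from 212 higher and 486 lower to 349 higher and 51 lower with the offsets.

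Among 25 tested injury transcription factors, edgeR called 4 lower in the capsaicin selection and none higher. The list median was -1.33, beside -1.04 for all genes, and of all genes tested 4.06% were called lower and 1.77% higher. DESeq2 called the same 4 lower and Atf2 higher. Junb, an AP-1 partner, was at 144 to 199 CPM in the Trpv1+ pools and at 0 to 5.73 CPM in the capsaicin pools, with a log2 fold change of -7.33. The log2 fold changes of Jund and of the C/EBP factors Cebpb and Cebpd were -6.00, -5.76 and -11.54. In the capsaicin pools Cebpd had 3 counts, all in the second jugular pool, so the size of its value is uncertain. Cebpb had 9 to 87 counts a pool there, and Jund had 1 in the first jugular pool. Of these 4, Cebpd alone was called with the GC and length offsets. Atf4, the integrated stress response factor, and Ddit3, its target CHOP, were among the highest of the list and had log2 fold changes of -0.60 and -1.48, neither called.

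Among 22 tested genes of the growth cone and axon cytoskeleton, edgeR called 3 higher and 4 lower, with a list median of -0.45. Its shares over all genes tested were 1.77% higher and 4.06% lower. DESeq2 called 4 of the 22 higher and 6 lower. Dpysl2, which encodes the collapsin response mediator CRMP2, was at 169 to 315 CPM in the Trpv1+ pools and at 10564 to 56385 CPM in the capsaicin pools, a log2 fold change of 5.97 (SE 0.42). Map1b, a microtubule-associated protein of growing axons, rose by 2.86 and the adhesion molecule Ncam1 by 3.11 on the log2 scale. Basp1, a growth cone protein related in function to Gap43, fell by 3.68, and the tubulins Tuba1a and Tubb2a and the stathmin Stmn3 changed by -3.63, -2.57 and -1.95. With the offsets Dpysl2, Map1b and Ncam1 were called higher and Tuba1a lower, while Basp1, Tubb2a and Stmn3 were not called.

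Among 18 genes of injury signalling from the axon, Lifr, the receptor for leukemia inhibitory factor, was higher by 2.75, and the dynein light chain Dynll1 was lower by -2.40 in log2 fold change. Sarm1, the NAD-cleaving enzyme of axon degeneration, was called lower, at 20.4 to 82.1 CPM in the Trpv1+ pools and at 0 in all 4 capsaicin pools. Lifr and Sarm1 were also called with the offsets. Between the selections DESeq2 called 5 of the 18 higher and 2 lower. Jak1, a kinase of cytokine receptors, was called higher in nodose over both selections, with a log2 fold change of 3.17 (SE 0.46) and an adjusted p of 0.0142 in edgeR.

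Of 20 genes listed here as lowered by axotomy, edgeR called 4 lower between the selections and none higher, and DESeq2 called 2 lower and 1 higher. The edgeR shares over all genes tested were 4.06% lower and 1.77% higher. Among the 4 called by edgeR were the neurofilaments Nefl (-1.07) and Nefm (-1.86) and the intermediate filament Prph (-2.76). Whether axotomy lowers each gene of this list, Prph included, was not tested here. Nefl lay 0.03 and Nefm 0.83 below the median of all genes, the pools of the selections overlapped for both, and DESeq2 called neither, with -0.52 (adjusted p = 0.534) for Nefl and -1.28 (adjusted p = 0.161) for Nefm. With the offsets the direction turned for Nefm and Prph, which were called higher at 2.72 and 1.60, and Nefl was not called. The median of all genes was 0.71 in that fit, and Nefm lay 2.01 and Prph 0.89 above it. The peptide genes Tac1, Calca and Calcb of this list were called lower by edgeR in nodose than in jugular neurons of the Trpv1 selection, with log2 fold changes of -10.65, -3.32 and -2.86. DESeq2 called Tac1 but neither Calca (adjusted p = 0.109) nor Calcb (adjusted p = 0.193) there. Over both selections Tac1 and Mrgprd, a receptor of non-peptidergic nociceptors, were lower in nodose by -10.45 and -10.97. Trpv1 and Calca were higher in Trpv1+ than in Trpv1- nodose neurons, by 12.20 and 8.64. Tac1 and Trpv1 also served to check the labels.

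Among 15 injury-induced peptides, receptors and secreted factors tested between the selections, edgeR called none, with an unadjusted p under 0.05 for 6, and 7 of the 25 in the files were at 0 in every pool. DESeq2 called 5 of the 15, 4 higher and 1 lower. Plaur, the urokinase receptor, was at 0.0441 to 25.5 CPM in the Trpv1+ pools and at 252 to 2866 CPM in the capsaicin pools, with a log2 fold change of 7.19 and an adjusted p of 0.119 in edgeR and of 7.82 and 2.01e-05 in DESeq2. Flrt3, a transmembrane protein of the FLRT family, was at 13.0 to 83.0 CPM and at 151 to 1320 CPM, with 2.85 (adjusted p = 0.107) in edgeR and 3.41 (adjusted p = 0.00613) in DESeq2. The pools of the selections did not overlap for these 2 genes. Vip, a peptide that axotomized sensory neurons raise, was at 89.5 and 101 CPM in Trpv1+ nodose and at 138 and 470 CPM in capsaicin nodose pools, and at 0.209 CPM or less in the jugular pools and at or under 0.0193 CPM in the Trpv1- nodose pools. It was called higher in nodose in the Trpv1 selection (12.62) and over both selections (11.55), and between the selections by DESeq2 alone (2.43, adjusted p = 0.0296). Of 10 tested immediate early genes of dissociation, edgeR called Btg1, an antiproliferative gene, higher in the capsaicin selection at 2.0 (SE 0.55). Btg1 was not called with the offsets. DESeq2 called 1 of these 10 higher and 2 lower. Between the selections edgeR called none of 12 small heat shock proteins and chaperones, 12 genes of growth arrest and cell death and 3 endothelin-converting enzyme-like proteases, with an unadjusted p under 0.05 for 3, 3 and 2 of them. DESeq2 called 5 of the chaperones lower, 1 gene of growth arrest and cell death higher and 1 lower, and 1 protease higher and 1 lower. Ece1, an endothelin-converting enzyme, was at 0.78 to 11.0 CPM in the Trpv1+ pools and at 45.6 to 208 CPM in the capsaicin pools, with a log2 fold change of 4.14 and an adjusted p of 0.105 in edgeR and of 4.68 and 7.79e-05 in DESeq2. Hspb8, another small heat shock protein, had a log2 fold change of -0.03 (SE 0.38).

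**Figure D4:**
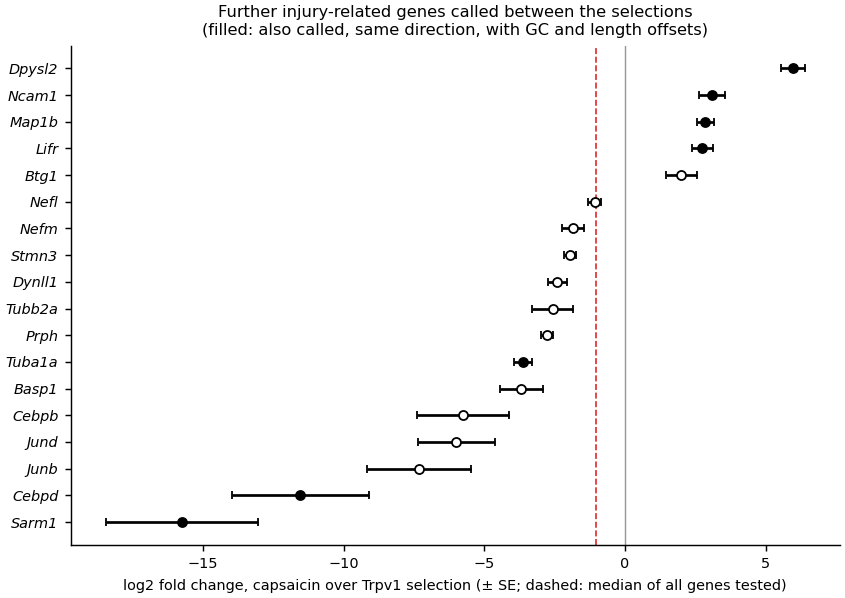
Log2 fold changes with standard errors of 18 of the 19 further injury-related genes called between the capsaicin selection and the Trpv1+ pools, with filled points for genes called in the same direction with GC and length offsets and a dashed line for the median of all genes tested. The points run from Sarm1, which had 0 counts in the capsaicin pools and whose plotted value depends on the prior count of the fit, to Dpysl2 at 5.97, and 7 of the 18 are filled.

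As a description, the genes whose pattern was most like that of each member were ranked by Pearson's r of log2(CPM + 1) over the 10 pools among 7497 genes. The nearest were Zc3h12d to Atf3 (r = 0.966), Ptges2 to Jun (0.952), Zfp266 to Sox11 (0.969), Synj2bp to Gap43 (0.958), Tmem176b to Stmn2 (0.908), Dnaja4 to Gadd45a (0.838) and Hyi to Hspb1 (0.996). With plain totals in place of size factors, 4 of these 7 were still among the 3 nearest of their member, and Zc3h12d, Tmem176b and Dnaja4 were not. The next for Hspb1 were Rps20 and Rps15a, which encode ribosomal proteins, of which Rps20 was not among the 3 nearest with plain totals. The pools share selection, depth and base composition, so these values carry no test.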

How the data were processed

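RNA of 10 pools of picked vagal neurons was copied with the SMARTer ultra low input kit and 15 PCR cycles, so counts are not independent molecules. The authors aligned reads to mm10 with TopHat2 (2.0.9) and Bowtie2 (2.1.0.0) and counted them with HTSeq, and the deposited counts per gene symbol are not normalized. The annotation and the strand setting are not given in the sources used here. Groups came from the sample labels, and cells per pool and agonists from the study's methods. The 9 members and the further lists were chosen with earlier results of these data known.

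Tests used edgeR 4.0.16 in R 4.3.3 (TMM, filterByExpr, glmQLFit and glmQLFTest) with Benjamini-Hochberg adjustment over all genes tested. Each of the 3 comparisons between 2 groups was fitted to its 4 pools alone, and the others to 8 pools with ganglion, selection or their interaction. SE is the size of the log2 fold change over the square root of F. DESeq2 1.42.0, RLE size factors, a fit to all 10 pools, no filter on low counts, a replicate block, plain totals and leaving out each pool were the alternatives. Offsets for GC share and length were added after the data were seen. All 9 members are named, with up to 4 called genes and the 3 highest genes of each list considered for naming. The fits were also run on simulated counts, whose outcome is not given here, and no statement above rests on it. Some genes are not reported here.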

Additional observations from a re-analysis of the deposited data

How the results depend on the processing

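Sox11 was called between the selections under every alternative run, and Hspb1 under every one but the GC and length offsets, which left 1 of the 7 genes called and 400 genes in all, and the medians by GC quintile above show on what that correction acts. DESeq2 called 459 genes between the ganglia in the Trpv1 selection, 320 between Trpv1+ and Trpv1- nodose, 734 between the ganglia in the capsaicin selection, 2269 between the selections, 1154 between the ganglia over both and 1091 for the interaction, and 1 of the 7 genes (Atf3) between the ganglia over both. The fit to all 10 pools called 110 genes between the ganglia in the capsaicin selection, 1401 between the selections, 213 between the ganglia over both, with 1 of the 7 (Atf3), and 7 for the interaction. Without a filter the counts were 59 and 10 in the Trpv1 selection, 122 in the capsaicin selection with 1 of the 7 (Gap43), 222 over both with 2 of the 7 (Gap43 and Sox11), and 95 for the interaction. The cause of these changes was not tested. Directions turned for Gadd45a between the selections (0.14 with DESeq2 and with RLE size factors, 1.41 with the offsets), for Stmn2 there (0.27 with the offsets), for Jun between the ganglia over both (0.07 with DESeq2 and RLE, 0.03 with 10 pools) and for Stmn2 in the interaction (0.15 with DESeq2 and RLE, 0.06 with 10 pools), none of them called. Between the selections Gadd45a stayed above the median of all genes in these fits, by 0.64 in edgeR with TMM and by 0.70 with the offsets. Pools with the same replicate number did not deviate together (r = 0.00221, -0.0126 and -0.0137 in the 3 comparisons of 2 groups). A correlation over genes in pools of so few cells cannot tell whether the numbers follow the mice. With a replicate block, 13, 1 and 20 genes were called in those comparisons, Jun turned to -2.44 in the capsaicin selection, and the members called did not change in number.

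Leaving out 1 pool leaves an arm of the comparisons of 2 groups with a lone pool, assumed to vary like the other group. Genes called were then 0 in both comparisons of the Trpv1 selection, 0 to 26 (without the first capsaicin jugular pool) between the ganglia in the capsaicin selection, 414 (without the first Trpv1+ nodose pool) to 737 between the selections, 38 (without the second capsaicin jugular pool) to 88 over both, and 0 to 194 (without the first capsaicin nodose pool) for the interaction. Between the selections 2 to 3 of the 7 were called, Gap43 being added without the second capsaicin jugular pool. Ranges that crossed 0 were, in the Trpv1 selection, -4.31 to 2.36 for Sox11 and -2.05 to 0.25 for Jun between the ganglia and -0.70 to 0.10 for Gadd45a between Trpv1+ and Trpv1-. In the capsaicin selection they were -8.05 to 2.62 for Jun, -0.18 to 0.24 for Stmn2 and -2.31 to 11.60 for Hspb1. Between the selections it was -0.61 to 0.01 for Gadd45a. Over both they were -2.49 to 0.70 for Jun, -0.23 to 0.39 for Gadd45a and -0.35 to 2.14 for Hspb1, and for the interaction -3.73 to 3.03 for Sox11, -7.18 to 3.62 for Jun and -2.92 to 13.14 for Hspb1. None of these was called.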
